A study of Rattus norvegicus with 39 samples.

Results

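The 3 opioid receptor genes described here are Oprk1 (ENSRNOG00000007647), Oprd1 (ENSRNOG00000010531) and Oprm1 (ENSRNOG00000018191), which encode the kappa, delta and mu opioid receptors. They were taken by gene identifier from a count table of 23978 genes, and all 3 were among the 14129 genes that passed a filter on low counts over the 39 libraries. The libraries hold polyribosome-bound mRNA from the nucleus accumbens (NAc) of female rats heterozygous for D1-Cre or D2-Cre, in which a viral RiboTag vector placed an HA tag on ribosomes of Cre-expressing cells, so that an anti-HA immunoprecipitation (IP) recovered mRNA from cells with dopamine D1 or D2 receptor promoter activity. Each library came from 2 mm punches of 1 rat that had been given 6 injections of saline or of 10 mg/kg racemic ketamine, spaced by the length of the cycle so that all fell in proestrus or all in diestrus, and that was killed 4 days after the last injection following 30 min in the test context. Of the 8 groups, 7 hold 5 libraries, and D2-Cre proestrus ketamine holds 4 because the authors left out 1 library. Only ketamine rats whose activity had increased over the treatment entered the sequencing. The recovered mRNA is that of every Cre-expressing cell that took up the virus, which can include interneurons, and input RNA was not used here.

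Opioid receptors are receptors for endogenous peptides that couple to inhibitory G proteins, lower cAMP, open inwardly rectifying potassium channels and close presynaptic calcium channels. In the striatum, D2-type medium spiny neurons (D2-MSNs) make enkephalin, the main ligand of the delta and mu receptors, and D1-type neurons (D1-MSNs) make dynorphin, the ligand of the kappa receptor. Kappa receptor signalling in the NAc is known for aversion and reduced dopamine release, and mu and delta signalling for reward.

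Total counts per library ran from 2396517 to 43224256 with a median of 20494896. These extremes were library 39 (D2 diestrus saline) and library 22 (D2 proestrus ketamine), and the other 37 libraries lay between 16118050 and 24784447. As a check of the labels, Adora2a, an adenosine receptor gene of D2-MSNs, was at 141 to 221 CPM (counts scaled to the library's total and normalized by TMM) in the 20 D1 libraries and at 452 to 1063 CPM in the 19 D2 libraries. The defining genes of D1-MSNs were not analysed here. Markers of other cells were compared between the lines in the same fits as the receptor genes. In saline and in ketamine rats, Sst and Nos1 were called lower and Gja1 and Flt1 higher in D2 by edgeR, while Gfap (adjusted p = 0.289 in saline and 0.192 in ketamine rats) and Aif1 (0.33 and 0.744) were not called. Sst and Nos1, 2 of 5 listed interneuron genes, summed to 246 to 837 CPM in D1 and 72.4 to 290 CPM in D2 libraries. Gfap and Gja1, 2 of 5 listed astrocyte genes, summed to 29.0 to 50.8 CPM in D1 and 39.8 to 114 CPM in D2. Flt1 of endothelium was at 2.01 to 4.67 CPM in D1 and 2.78 to 11.8 CPM in D2, and Aif1 of microglia at 0.527 to 1.1 and 0.367 to 2.17 CPM. None of these sums was 0 in any library, and no gene of cholinergic interneurons or glutamatergic neurons could be matched. The part of these cells in the receptor values below was not tested.

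The D2 to D1 comparison asks which genes are enriched in either cell type. The kappa receptor gene Oprk1 was D1-biased and the delta receptor gene Oprd1 was D2-biased in saline rats, in ketamine rats and in each cycle stage, while the mu receptor gene Oprm1 was called in none of these comparisons. Oprk1 in D2 libraries was at 0.495 times its D1 level in saline rats, and Oprd1 at 2.59 times. No ketamine or cycle-stage difference of any of the 3 genes passed the test.

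**Figure D1:**
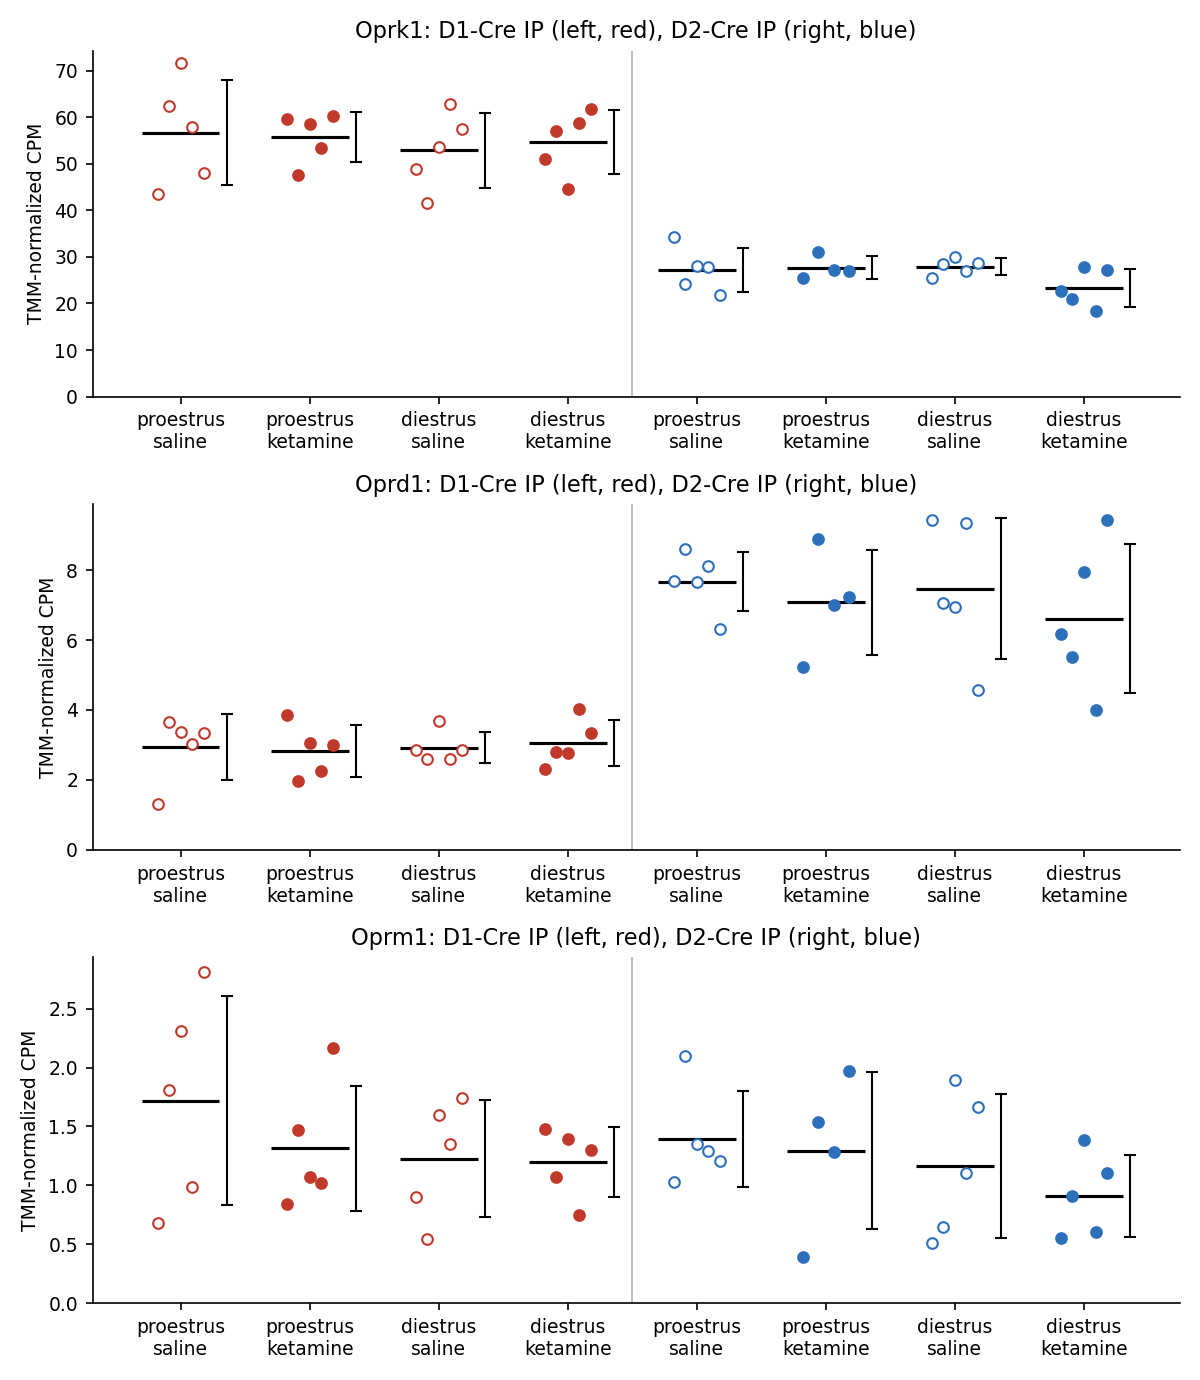
TMM-normalized CPM of Oprk1, Oprd1 and Oprm1 in each of the 39 libraries (points, open for saline and filled for ketamine), by cycle stage and treatment, with D1-Cre in red on the left and D2-Cre in blue on the right. Horizontal lines are group means and the bars beside them are 1 SD on each side (n = 5, or 4 in D2 proestrus ketamine). All D1 points of Oprk1 lie above all D2 points, Oprd1 shows the opposite order with an overlap of 1 library from each line, and Oprm1 overlaps throughout.

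Oprk1 was counted 775 to 1735 times in each D1 library and 69 to 1338 times in each D2 library. In proestrus saline rats, the 5 D1 libraries were at 43.5, 48.1, 57.9, 62.3 and 71.6 CPM. The 5 D2 libraries of the same stage and treatment were at 21.8, 24.3, 27.8, 28.0 and 34.3 CPM. The highest D2 library stayed below the lowest D1 library, as for 2.94% of all genes tested in these groups. In diestrus saline rats, the D1 libraries were at 41.6, 48.9, 53.7, 57.5 and 62.7 CPM, and the D2 libraries at 25.5, 27.0, 28.5, 28.7 and 30.0 CPM. The D2 values of this stage were close together, with an SD of 1.74 CPM against 8.10 CPM in D1, and the groups were again apart, with D1 higher, as for 3.11% of all genes.

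Over the saline rats of both stages, Oprk1 averaged 54.8 ± 9.44 CPM in D1 (SD, n = 10) and 27.6 ± 3.38 CPM in D2 (SD, n = 10). The log2 fold change of D2 against D1 was -1.01 (SE 0.0462, 95% confidence interval -1.11 to -0.92), with an adjusted p of 5.13e-13 by the edgeR quasi-likelihood test (Benjamini-Hochberg over all genes tested). Of 13689 genes tested, 28.8% passed the threshold of an adjusted p under 0.1 in this comparison, 14.1% in the direction of D1. A complete separation of the D1 from the D2 saline libraries, with D1 higher, was found for 0.979% of the genes tested. Of the 1936 D1-biased genes, 121 had a change at least as large as that of Oprk1, whose rank by p was 17 among all genes. In bulk samples such as these, fewer cells with the transcript and less transcript per cell cannot be told apart.

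The same direction was seen in the ketamine rats, which the saline comparison did not use. The D1 libraries of proestrus ketamine rats were at 47.5, 53.3, 58.4, 59.5 and 60.3 CPM of Oprk1, and the 4 D2 libraries at 25.6, 26.9, 27.2 and 31.1 CPM. Those of diestrus ketamine rats were at 44.5, 50.9, 57.1, 58.8 and 61.7 CPM in D1 and at 18.3, 20.9, 22.7, 27.1 and 27.9 CPM in D2. Neither pair of groups overlapped, which with D1 higher held for 3.11% of all genes in proestrus and 2.48% in diestrus. The lowest value of all, 18.3 CPM, was library 32 of the diestrus D2 ketamine group, which also had the lowest Adora2a of the D2 libraries (452 CPM). Over both stages, Oprk1 averaged 55.2 ± 5.86 CPM in D1 (SD, n = 10) and 25.3 ± 3.94 CPM in D2 (SD, n = 9), and edgeR gave a log2 fold change of -1.14 (SE 0.0519) with an adjusted p of 9.24e-14. In this comparison 18% of 13850 genes passed the threshold and 9.83% were D1-biased, while 0.996% separated completely with D1 higher.

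Within single stages, Oprk1 was lower in D2 by edgeR in all 4 comparisons. It was -1.13 on the log2 scale in proestrus saline rats (SE 0.0799, adjusted p = 3.17e-06) and -0.92 in diestrus saline rats (SE 0.132, adjusted p = 0.00229). After ketamine it was -0.97 in proestrus (SE 0.0679, adjusted p = 3.18e-06) and -1.22 in diestrus (SE 0.0628, adjusted p = 6.11e-09). The share of all genes that passed with D1 higher was 2.6% and 2.38% in saline and 3.21% and 6.6% in ketamine rats. The proestrus and diestrus comparisons use different rats, so the Oprk1 difference was found separately in 4 sets of libraries.

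Oprd1 had fewer counts, 25 to 85 in each D1 library and 11 to 382 in each D2 library. In proestrus saline rats, the D1 libraries were at 1.31, 3.04, 3.35, 3.38 and 3.66 CPM. The D2 libraries were at 6.31, 7.64, 7.68, 8.11 and 8.60 CPM. All of the D2 values lay above all of the D1 values, as for 3.49% of all genes, and 1 D1 library, library 1 at 1.31 CPM, stood below the rest of its group. In diestrus saline rats, the D1 libraries were at 2.60, 2.61, 2.84, 2.86 and 3.68 CPM, and the D2 libraries at 4.58, 6.96, 7.06, 9.34 and 9.43 CPM. These groups did not overlap either (with D2 higher, 2.85% of all genes), and the lowest D2 value came from 11 counts in the shallowest library, library 39, without which the saline difference described next was 1.38 (adjusted p = 1.2e-06, edgeR).

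The mean of Oprd1 over saline rats was 2.93 ± 0.695 CPM in D1 (SD, n = 10) and 7.57 ± 1.46 CPM in D2 (SD, n = 10). Its log2 fold change was 1.37 (SE 0.128, 95% confidence interval 1.11 to 1.64, adjusted p = 9.42e-08 in edgeR's quasi-likelihood test). D2-biased genes made up 14.6% of those tested, and 39 of the 2005 had a change at least as large as that of Oprd1. The saline libraries of the 2 lines were completely separated with D2 higher for 0.657% of the genes tested.

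After ketamine, the D1 libraries in proestrus were at 1.96, 2.24, 2.99, 3.06 and 3.87 CPM of Oprd1, and the 4 D2 libraries at 5.22, 7.00, 7.22 and 8.89 CPM. In diestrus the D1 libraries were at 2.32, 2.78, 2.78, 3.35 and 4.02 CPM, and the D2 libraries at 3.99, 5.53, 6.17, 7.95 and 9.43 CPM. The proestrus groups did not overlap, as for 2.41% of all genes with D2 higher. The diestrus ketamine groups, which separated with D2 higher for 2.2% of all genes, overlapped by 1 library on each side, library 28 in D1 at 4.02 CPM and library 32 in D2 at 3.99 CPM. Over both stages, Oprd1 averaged 2.94 ± 0.674 CPM in D1 (SD, n = 10) and 6.82 ± 1.78 CPM in D2 (SD, n = 9). The log2 fold change by edgeR was 1.19 (SE 0.118, adjusted p = 9.65e-08), in a comparison in which 8.16% of the genes tested were D2-biased and 0.339% separated completely with D2 higher.

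By stage and treatment, Oprd1 was higher in D2 by edgeR in each of the 4 comparisons. On the log2 scale it was 1.36 in proestrus saline rats (SE 0.235, adjusted p = 0.00642) and 1.36 in diestrus saline rats (SE 0.183, adjusted p = 0.00088). In ketamine rats it was 1.41 in proestrus (SE 0.194, adjusted p = 0.000868) and 1.09 in diestrus (SE 0.152, adjusted p = 0.000268). The share of all genes that passed with D2 higher was 2.8% and 1.73% in saline and 2.4% and 6.16% in ketamine rats.

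**Figure D2:**
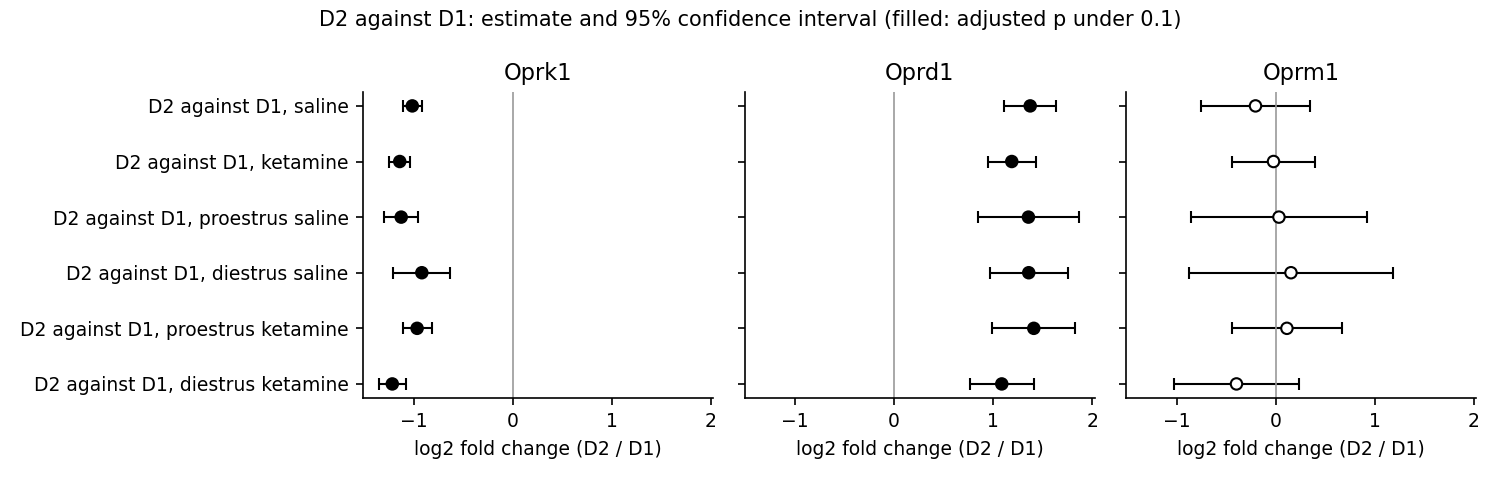
The log2 fold change of D2 against D1 libraries for Oprk1, Oprd1 and Oprm1 in saline and ketamine rats and in each stage and treatment (points), with 95% confidence intervals (bars) on 1 common axis. Filled points passed an adjusted p under 0.1. The Oprk1 estimates lie between -1.22 and -0.92, the Oprd1 estimates between 1.09 and 1.41, and every Oprm1 interval includes 0.

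Oprm1 was counted only 4 to 66 times per library, so that its values were less precise than those of the other receptor genes. The coefficient of variation over libraries was 42.9% in D1 and 42.8% in D2, where counting error alone gives about 19.1% and 19.9%. In proestrus saline rats, the D1 libraries were at 0.681, 0.984, 1.81, 2.31 and 2.81 CPM and the D2 libraries at 1.03, 1.21, 1.29, 1.35 and 2.09 CPM. In diestrus saline rats, they were at 0.545, 0.904, 1.36, 1.59 and 1.74 CPM in D1 and at 0.509, 0.650, 1.1, 1.67 and 1.90 CPM in D2. The ranges of D1 and D2 overlapped almost fully. Of the 20 D1 libraries, 17 lay within the D2 range, as did 17 of the 19 D2 libraries within the D1 range.

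In ketamine rats the same held. Proestrus libraries were at 0.841, 1.02, 1.07, 1.47 and 2.17 CPM of Oprm1 in D1 and at 0.390, 1.28, 1.54 and 1.97 CPM in D2. Diestrus libraries were at 0.744, 1.07, 1.3, 1.39 and 1.48 CPM in D1 and at 0.550, 0.60, 0.906, 1.1 and 1.38 CPM in D2. The log2 fold change of D2 against D1 for Oprm1 was -0.20 in saline rats (SE 0.266, 95% confidence interval -0.76 to 0.35, adjusted p = 0.64, edgeR) and -0.02 in ketamine rats (SE 0.202, 95% confidence interval -0.44 to 0.40, adjusted p = 0.965). Both intervals allow a difference in either direction, but not one as large as that of Oprk1 or Oprd1 in the same comparison. Within stages the estimates ran from -0.39 in diestrus ketamine rats (adjusted p = 0.487) to 0.16 in diestrus saline rats (adjusted p = 0.947). In 3 of the 4 the fitted value had another sign than the difference of the mean CPM. It was 0.03 in proestrus saline rats, with means of 1.72 in D1 and 1.39 in D2, 0.16 in diestrus saline rats, with means of 1.23 and 1.16, and 0.11 in proestrus ketamine rats, with means of 1.31 and 1.29.

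Kappa and delta receptor counts could also be set against each other within a library, which needs no normalization between libraries. The number of Oprk1 counts per Oprd1 count was 19.5 ± 4.52 in D1 (SD, n = 20) and 3.82 ± 0.851 in D2 (SD, n = 19). It ranged from 14.3 to 33.2 in D1 and from 2.70 to 6.27 in D2, so that no library of either line fell in the range of the other. The size of the ratio itself depends on the length of the transcripts and is not a ratio of molecules. Of the summed counts of the 3 genes, Oprk1 held 92.8% ± 1.40 in D1 and 76.0% ± 3.45 in D2. The share of Oprd1 was 4.95% ± 0.940 in D1 and 20.6% ± 3.28 in D2, and that of Oprm1 was 2.29% ± 0.951 and 3.36% ± 1.32. The highest ratio of all was that of library 1 (33.2), from 830 Oprk1 and 25 Oprd1 counts, and the highest of D2 was that of library 39 (6.27), from 69 and 11 counts.

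**Figure D3:**
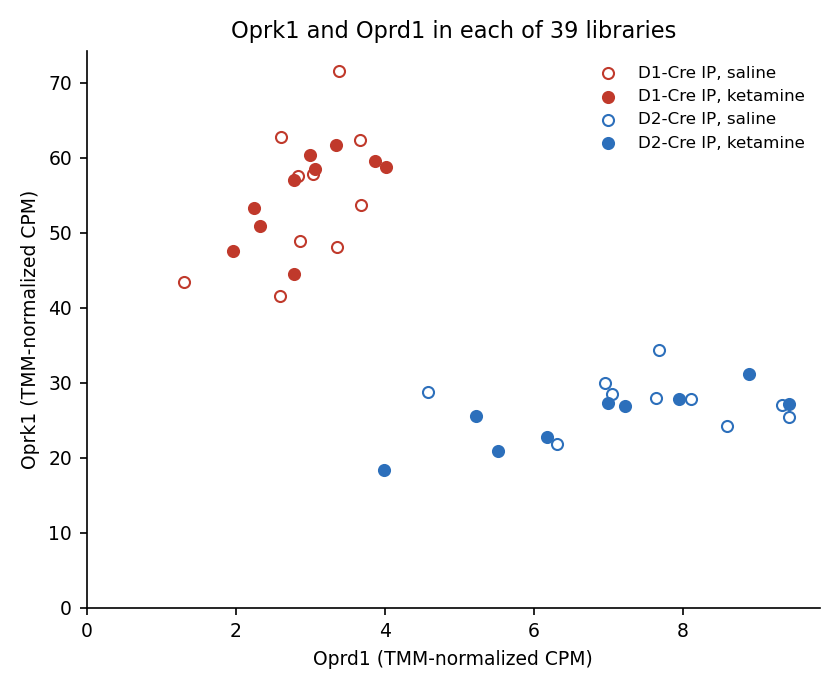
Oprk1 against Oprd1 in each library, both as TMM-normalized CPM, in D1-Cre (red) and D2-Cre (blue) rats given saline (open) or ketamine (filled). The lines form separate groups, with D1 libraries at 41.6 to 71.6 CPM of Oprk1 and 1.31 to 4.02 CPM of Oprd1, and D2 libraries at 18.3 to 34.3 and 3.99 to 9.43 CPM.

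Within a cell type, the receptor genes were compared across libraries on the scale of log2(CPM + 0.5), 6 relations in all, with permutation tests of 100000 resamples (two-sided). All values of a library share its normalization and depth. Oprk1 and Oprd1 were correlated in D1 libraries, with a Pearson r of 0.577 (permutation p = 0.00729, adjusted 0.0437) and a Spearman rho of 0.588 (permutation p = 0.00755, adjusted 0.0453) over 20 libraries. Without the 2 libraries farthest from the median of Oprk1, libraries 1 and 11, r was 0.456. In the 19 D2 libraries, r was 0.524 (permutation p = 0.0219, adjusted 0.0657) and rho was 0.265 (permutation p = 0.272, adjusted 0.408). Without libraries 32 and 16, r in D2 was 0.162, so that the D2 relation rests on those libraries. For Oprm1 with Oprk1, r was 0.362 in D1 and 0.388 in D2 (both adjusted p = 0.176, permutation), and rho was 0.307 (permutation p = 0.187, adjusted 0.374) and 0.404 (permutation p = 0.0859, adjusted 0.258). With Oprd1, r of Oprm1 was 0.273 in D1 and 0.288 in D2 (both adjusted p = 0.247, permutation), and rho was 0.202 and 0.189 (both adjusted p = 0.435, permutation).

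The order of the 8 group means followed the Cre line for Oprk1 and Oprd1. For Oprk1, the 4 D1 means ran from 56.7 CPM in proestrus saline over 55.8 CPM in proestrus ketamine and 54.6 CPM in diestrus ketamine to 52.9 CPM in diestrus saline. The 4 D2 means followed at 27.9 CPM in diestrus saline, 27.7 CPM in proestrus ketamine, 27.2 CPM in proestrus saline and 23.4 CPM in diestrus ketamine. Neighbours in this order overlapped, except at the step from D1 to D2. For Oprd1, D2 proestrus saline came first at 7.67 CPM, then diestrus saline at 7.47, proestrus ketamine at 7.08 and diestrus ketamine at 6.61 CPM, and the D1 means lay between 3.05 CPM in diestrus ketamine and 2.82 CPM in proestrus ketamine. Every pair of neighbours overlapped in this order. The means of Oprm1 ran from 1.72 CPM in D1 proestrus saline to 0.908 CPM in D2 diestrus ketamine, D1 and D2 groups were mixed in the order, and all neighbours overlapped.

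The ketamine comparison asks whether repeated exposure changed polyribosome-bound mRNA within a cell type and stage. None of the 12 tests of the receptor genes passed in edgeR's quasi-likelihood test, none had an unadjusted p under 0.05, and none passed with DESeq2. Among all genes tested, 0.00759% passed in proestrus D1, 0.0227% in diestrus D1 and 0% in either stage of D2, and at an unadjusted p under 0.05 the shares were 5.8%, 2.66%, 3.41% and 2.64%. The study called more genes for ketamine in each of these groups at the same threshold, most of them in proestrus D1. It used DESeq2 with surrogate variables whose number it does not give. For Oprk1, the log2 fold change of ketamine against saline was 0.02 in proestrus D1 (95% confidence interval -0.17 to 0.21), 0.02 in diestrus D1 (-0.12 to 0.16), 0.09 in proestrus D2 (-0.17 to 0.35) and -0.14 in diestrus D2 (-0.34 to 0.06). The saline and ketamine values of Oprk1 given above overlapped in each of these 4 comparisons.

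For Oprd1, the log2 fold change of ketamine against saline was 0.02 in proestrus D1 (-0.45 to 0.49), 0.05 in diestrus D1 (-0.34 to 0.43), -0.03 in proestrus D2 (-0.38 to 0.33) and -0.11 in diestrus D2 (-0.42 to 0.19). For Oprm1 it was -0.28 in proestrus D1 (-0.86 to 0.29), -0.02 in diestrus D1 (-0.68 to 0.64), -0.17 in proestrus D2 (-0.90 to 0.56) and 0.03 in diestrus D2 (-0.87 to 0.94). The lowest adjusted p of the 12 tests was 0.919 (edgeR), and the intervals of Oprm1 were the widest.

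Proestrus was compared with diestrus within each line and treatment. None of the 12 tests passed by edgeR or by DESeq2, and no gene tested passed by edgeR (0% in each of the 4 comparisons), whereas at an unadjusted p under 0.05 the shares of all genes were 3.96% in D1 saline, 3.9% in D1 ketamine, 4.09% in D2 saline and 3.45% in D2 ketamine. A single receptor test had an unadjusted p under 0.05, that of Oprk1 in D2 ketamine rats. Its log2 fold change of proestrus against diestrus was 0.25 (SE 0.0815, 95% confidence interval 0.07 to 0.42, unadjusted p = 0.0104, adjusted p = 0.998, edgeR), from 27.7 ± 2.40 CPM (SD, n = 4) and 23.4 ± 4.06 CPM (SD, n = 5). The libraries overlapped, since the highest diestrus values, 27.1 and 27.9 CPM, lay above 2 and 3 of the 4 proestrus values. In the other cycle-stage comparisons, the log2 estimate of Oprk1 was 0.06 in D1 saline, 0.04 in D1 ketamine and -0.04 in D2 saline rats. That of Oprd1 was -0.08 in D1 saline, -0.10 in D1 ketamine, -0.07 in D2 saline and 0.04 in D2 ketamine rats. That of Oprm1 was 0.17 in D1 saline, 0.05 in D1 ketamine, 0.39 in D2 saline (95% confidence interval -0.38 to 1.16) and 0.10 in D2 ketamine rats.

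Over the ketamine and cycle-stage comparisons together, the 95% confidence intervals of Oprk1 stayed between -0.34 and 0.42 on the log2 scale, which is 0.791 to 1.34 times. Those of Oprd1 stayed between -0.57 and 0.49 (0.675 to 1.40 times), and those of Oprm1 between -0.90 and 1.16 (0.536 to 2.24 times). These are intervals of single tests, not adjusted for their number. The Oprk1 and Oprd1 differences between D1 and D2 lie outside the intervals of the same gene.

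**Figure D4:**
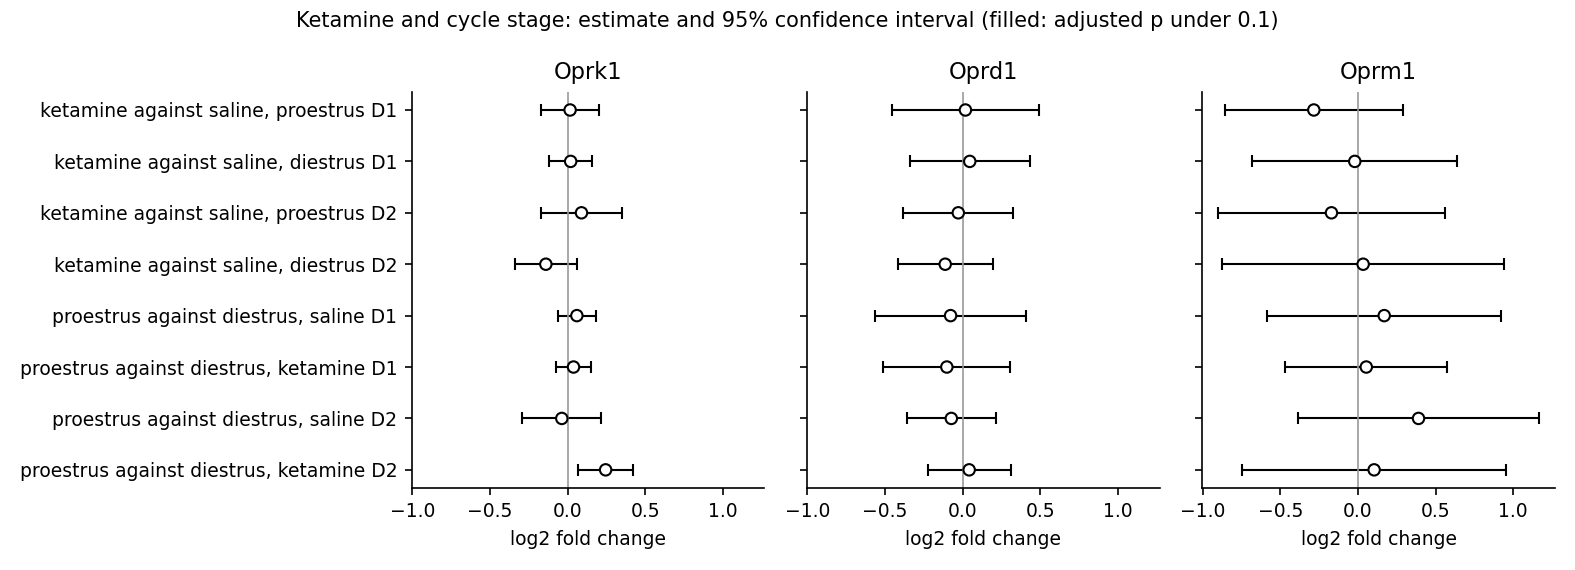
The log2 fold change of ketamine against saline (upper 4 lines) and of proestrus against diestrus (lower 4 lines) for Oprk1, Oprd1 and Oprm1 (points), with 95% confidence intervals (bars) on 1 common axis. No point is filled, since no adjusted p was under 0.1. The interval of Oprk1 for cycle stage in D2 ketamine rats, 0.07 to 0.42, is the only one that does not include 0, and the intervals of Oprm1 are the widest.

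Interaction terms tested whether these differences themselves differed. The difference between D2 and D1 did not differ detectably between saline and ketamine rats for Oprk1 (log2 0.03, 95% confidence interval -0.21 to 0.26), Oprd1 (-0.03, -0.46 to 0.39) or Oprm1 (0.08, -0.72 to 0.89), each with an adjusted p of 1 by edgeR. Between the stages in saline rats, the interaction with cell type was -0.14 for Oprk1 (-0.54 to 0.26), -0.10 for Oprd1 (-0.67 to 0.48) and 0.01 for Oprm1 (-1.14 to 1.17). The ketamine by stage interaction in D1 was -0.03 for Oprk1 (-0.19 to 0.12), -0.07 for Oprd1 (-0.65 to 0.51) and -0.42 for Oprm1 (-1.46 to 0.62). In D2 it was 0.24 for Oprd1 (-0.22 to 0.70) and 0.02 for Oprm1 (-1.16 to 1.20). For Oprk1 in D2 it was 0.30 (SE 0.137, 95% confidence interval 0.01 to 0.58), with an unadjusted p of 0.0423 and an adjusted p of 1. No gene passed in any of the 4 interactions by edgeR (0% of the genes tested), and at an unadjusted p under 0.05 the shares of all genes were 2.31% for cell type by ketamine, 2.26% for cell type by stage, 4.91% for ketamine by stage in D1 and 1.75% in D2. DESeq2 called none of the 12 interaction tests of the receptor genes and gave 1 an unadjusted p under 0.05.

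Of 36 other genes listed for the opioid system, 5 could be matched to an identifier, and the others, the 4 ligand precursor genes and Oprl1 included, were not analysed here. In saline rats 3 of the 5 were lower in D2 and 1 was higher by edgeR, beside 28.8% of all genes called, and their median log2 fold change was -0.28 against 0.00 over all genes tested. Within single stages of saline rats, 1 was called lower in proestrus and 0 in diestrus, beside 2.6% and 2.38% of all genes. Within single stages of ketamine rats it was 1 and 3, beside 3.21% and 6.6%. In these stage comparisons none was called higher. Kcnj6, a subunit of the inwardly rectifying potassium channels that opioid receptors open, was at 18.9 ± 7.57 CPM in D1 and 11.0 ± 4.84 CPM in D2 (SD, n = 10 each), a log2 fold change of -0.80 (SE 0.198, adjusted p = 0.00847, edgeR). Its call was lost without library 1 (-0.59, adjusted p = 0.319) and without library 17 (-0.41, adjusted p = 0.351), both D1 proestrus saline. Kcnj6 was called in no single stage of saline or ketamine rats (adjusted p from 0.102 to 0.213, edgeR). Gnaz, the alpha subunit of an inhibitory G protein, was at 41.1 ± 3.00 and 34.1 ± 1.83 CPM (log2 -0.28, SE 0.0444, adjusted p = 0.000127).

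Among the regulators of G protein signalling, which shorten G protein signals, Rgs4 and Rgs9 were the matched genes. Rgs4 was at 210.8 ± 50.1 CPM in D1 and 156.6 ± 43.1 CPM in D2 saline rats (log2 -0.47, SE 0.127, adjusted p = 0.014, edgeR). That call was lost without library 1 (-0.33, adjusted p = 0.412), library 17 (-0.23, adjusted p = 0.485) or library 39 (-0.21, adjusted p = 0.113). Among 9 alternative settings of the processing, 2 lost it as well. Within single stages, Rgs4 was called in diestrus ketamine rats only (adjusted p = 0.0209, edgeR). Rgs9, whose product is abundant in striatum, was at 302.4 ± 33.9 and 357.3 ± 38.1 CPM (log2 0.23, SE 0.049, adjusted p = 0.00176), a call lost without library 1 (0.10, adjusted p = 0.4). Adcy5, the main adenylyl cyclase of the striatum, was at 783.6 ± 121.6 and 833 ± 55.1 CPM and was not called (log2 0.08, adjusted p = 0.224), but passed without library 9 of D1 proestrus saline (0.16, adjusted p = 0.0764). Within diestrus ketamine rats alone, Adcy5 was called lower in D2 (-0.18, adjusted p = 0.0739, edgeR). In ketamine rats, Gnaz, Kcnj6 and Rgs4 were again lower in D2 and no matched gene was called higher, with Kcnj6 at -0.52 (adjusted p = 0.0116), Rgs4 at -0.36 (adjusted p = 0.0213) and Gnaz at -0.19 (adjusted p = 0.000997), beside 18% of all genes called and 9.83% called lower in D2. In a single edgeR model of all 39 libraries, Kcnj6 (adjusted p = 0.349), Rgs4 (0.487) and Rgs9 (0.974) were not called in saline rats, nor were Kcnj6 (0.405) and Rgs4 (0.536) in ketamine rats, and Adcy5 was called lower in D2 in both (-0.21, adjusted p = 0.0409, and -0.20, adjusted p = 0.0141). Without surrogate variables, Kcnj6 (adjusted p = 0.342) and Rgs4 (0.384) were not called in ketamine rats. None of the 5 was called for ketamine, cycle stage or an interaction.

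Genes whose pattern over the 39 libraries was most like that of each receptor gene were taken by Pearson's r of log2(CPM + 0.5) among 1596 genes with a matched symbol. The r values are a description, since the libraries fall into 2 Cre lines. For Oprk1 they were Nos1 (r = 0.915), Tmtc1 (0.882), Nek7 (0.879), Sst (0.87) and Chodl (0.868). Nos1, which encodes neuronal nitric oxide synthase, Sst, which encodes somatostatin, and Chodl are known together as genes of a class of striatal interneurons. All 5 were lower in D2 saline libraries, from -0.68 for Tmtc1 to -1.78 for Nos1 on the log2 scale. Within D1 libraries r with Oprk1 was 0.755 for Nos1, 0.237 for Tmtc1, 0.49 for Nek7, 0.548 for Sst and 0.182 for Chodl. Within D2 libraries it was 0.363, 0.608, -0.0513, 0.205 and -0.127 in the same order.

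Library 17 had both the highest Oprk1 (71.6 CPM) and the highest sum of Sst and Nos1 (837 CPM). The ranges of this sum in D1 and D2 overlapped for 4 libraries. In D1 these were library 20 at 246 CPM, with 44.5 CPM of Oprk1, and library 25 at 270 CPM, with 57.9 CPM of Oprk1. In D2 they were library 6 at 247 CPM, with 25.6 CPM of Oprk1, and library 5 at 290 CPM, with 34.3 CPM, the highest Oprk1 of D2. Without library 17 the difference of D2 against D1 in saline rats was -1.05 for Oprk1 (adjusted p = 7.35e-08, edgeR), and without library 5 it was -1.16 (adjusted p = 3.69e-11). The difference in Oprk1 at an equal level of these markers was not tested.

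For Oprd1, the most similar genes were Adora2a (r = 0.917), Fig4 (0.87), Itpr2 (0.854), Map3k20 (0.85) and Cd24 (0.806), and all 5 were higher in D2 saline libraries, from 0.46 for Fig4 to 2.38 for Adora2a on the log2 scale. Within D2 libraries, r of Oprd1 was 0.761 with Adora2a, 0.441 with Itpr2, 0.597 with Map3k20, 0.641 with Cd24 and 0.677 with Fig4. Within D1 libraries it was 0.291, 0.35, 0.357, -0.376 and 0.318 in the same order. Library 32 had the lowest Oprd1 and the lowest Adora2a of D2 libraries. The astrocyte sum was 80.6 CPM in library 32, and the highest astrocyte sum, 114 CPM, was that of D2 library 7, which had the highest Oprd1 (9.43 CPM) and 1030 CPM of Adora2a. Without library 32, the difference of D2 against D1 in ketamine rats was 1.26 for Oprd1 (adjusted p = 6.38e-08, edgeR) and -1.10 for Oprk1 (adjusted p = 6.74e-13).

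For Oprm1, the most similar genes were Abat (r = 0.779), Mgat5 (0.775), Nlgn3 (0.746), Gsk3b (0.742) and Prkca (0.74). None of the 5 was called between D2 and D1 in saline rats (adjusted p from 0.441 to 0.774, edgeR), and r was 0.66 to 0.74 within D1 and 0.784 to 0.834 within D2 libraries. Their r with Oprm1 was thus of like size within each line and over all 39 libraries.

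**Figure D5:**
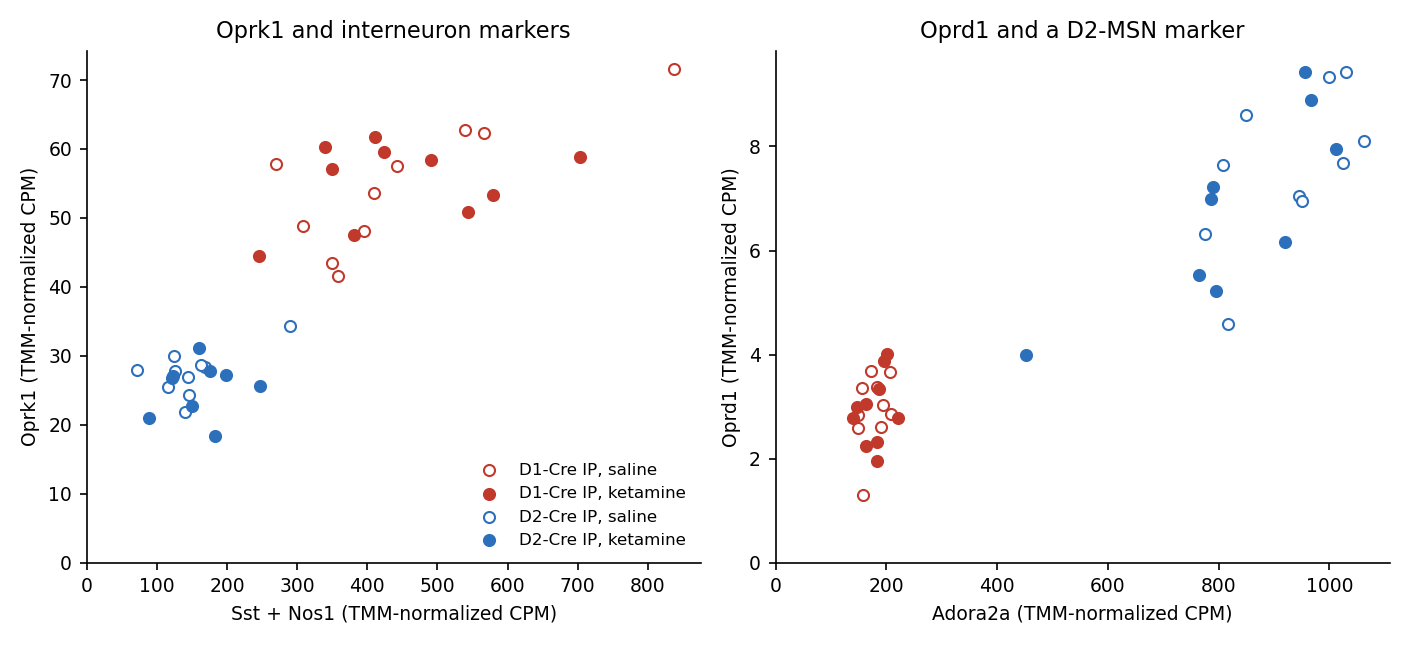
Oprk1 against the sum of Sst and Nos1 (left) and Oprd1 against Adora2a (right) in each library, all as TMM-normalized CPM, for D1-Cre (red) and D2-Cre (blue) rats given saline (open) or ketamine (filled). D1 libraries range from 246 to 837 CPM of Sst and Nos1 and D2 libraries from 72.4 to 290 CPM, with Oprk1 separated throughout. On the right, library 32 lies apart from the other D2 libraries at 452 CPM of Adora2a and 3.99 CPM of Oprd1.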

How the data were processed

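RiboTag IP RNA from the NAc of female rats was sequenced as 39 libraries, 1 per rat. The authors trimmed reads with fastp 0.23.4, quantified them with Salmon 1.10.2 against mRatBN7.2 (Ensembl release 110) and summarized per gene. The deposited values are unnormalized expected counts per gene, which the authors gave as whole numbers. Tests used edgeR 4.0.16 in R 4.3.3: filterByExpr by group (minimum count 10), TMM, robust quasi-likelihood, 2 surrogate variables (sva 3.50.0), Benjamini-Hochberg adjustment over all genes tested, and calls at an adjusted p under 0.1. Levels are TMM-normalized CPM over all 39 libraries. Saline and ketamine fits of D2 against D1 and the fit of cell type by ketamine had cycle stage as a covariate. Other fits held only the groups compared. No label pairs rats across groups, so fits were unpaired, with runs of 8 library numbers as blocks in an alternative.

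The receptor genes and lists were chosen with earlier results of these data known. Named list genes are the up to 2 called per subgroup with the largest change in saline rats; in effect every matched gene was named. Similar genes are the 5 highest r. Symbols of 1966 further identifiers came from the identifier and symbol columns of the study's tables, held here only in part (the lowest identifiers mostly), which matched 5 of 36 opioid system and 9 of 38 marker genes (1 marker list is not reported here). On simulated counts with 200 changed genes, the saline D2 to D1 fit (13594 genes) recovered 76% of 1.41-fold and 93% of 2-fold changes, with 12 false among 181 calls, and the proestrus D1 ketamine fit (13093 genes) 68% and 90%, with 21 false among 179. The simulated counts held no hidden factor, and the rates average over genes of all levels. They are therefore not rates for the real fits or for a gene with counts as low as those of Oprm1. Alternatives were other numbers of surrogate variables, DESeq2 1.42.0, its size factors, other filters and thresholds, a single model, those blocks, and each library left out. Transcript sequences and lengths were not used here.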

Additional observations from a re-analysis of the deposited data

Results flagged for a closer look

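Of 24 sets of values, the 3 genes in 8 groups each, 2 held a library that stood apart from the rest of its group by Dixon's criterion, which chance alone meets in about 1 in 20 sets. Both were Oprd1 in D1 saline groups. In D1 proestrus saline, library 1 was at 1.31 CPM from 25 counts, below the next value of 3.04 CPM. In D1 diestrus saline, library 19 was at 3.68 CPM from 67 counts, above the next value of 2.86 CPM. Without library 1, Oprd1 in D2 against D1 saline rats had a log2 fold change of 1.26 (adjusted p = 3.72e-07, edgeR), and without library 19 it was 1.42 (adjusted p = 1.53e-07), so that the call was kept in both refits.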

How the results depend on the processing

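Oprk1 and Oprd1 kept their direction and their call between D2 and D1 in all 138 refits of each gene over the 6 comparisons, with Oprk1 from -1.33 to -0.80 (highest adjusted p 0.0217) and Oprd1 from 0.92 to 1.59 on the log2 scale (highest adjusted p 0.0489). All counts of refits in this paragraph include, once per comparison, the main fit read at an adjusted p under 0.05. The log2 fold change of that entry cannot differ from the main one. Oprm1 was called in 0 of 134 refits (lowest adjusted p 0.292, edgeR and DESeq2 fits together) and changed sign in 27. For ketamine, cycle stage and interactions no refit of a receptor gene was called, with the lowest adjusted p at 0.248 for Oprk1, 0.626 for Oprd1 and 0.336 for Oprm1, and the sign changed in 28 of 284, 36 of 284 and 50 of 277 refits. The cause of these changes was not tested. The values that changed sign follow, on the log2 scale.

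Without surrogate variables, Oprm1 between D2 and D1 was -0.30 in proestrus saline, -0.17 in diestrus saline and -0.014 in proestrus ketamine rats. The ketamine difference in proestrus D1 was -0.021 for Oprk1 and -0.062 for Oprd1, and that of Oprm1 in diestrus D2 was -0.26. Cycle stage in D1 saline gave 0.017 for Oprd1, cell type by stage -0.12 for Oprm1, and cell type by ketamine -0.13 for Oprk1. With 1 surrogate variable, Oprm1 between D2 and D1 was -0.26 in proestrus and -0.18 in diestrus saline rats, ketamine gave -0.0095 for Oprd1 in proestrus D1 and -0.17 for Oprm1 in diestrus D2, and the interactions were -0.032 for Oprm1 (cell type by stage) and -0.12 for Oprk1 (cell type by ketamine). With the number of surrogate variables that num.sv estimates, Oprm1 between D2 and D1 in proestrus saline rats was -0.17, ketamine in proestrus D1 gave -0.054 for Oprk1 and -0.043 for Oprd1, and Oprm1 had interactions of -0.14 (cell type by stage) and -0.20 (ketamine by stage in D2). In a single model of all 39 libraries, Oprm1 between D2 and D1 was -0.45, -0.38 and -0.025 in proestrus saline, diestrus saline and proestrus ketamine rats, ketamine in proestrus D1 gave -0.062 for Oprk1 and -0.12 for Oprd1, and ketamine in proestrus D2 gave 0.0055 for Oprm1 and 0.11 for Oprd1. That model also gave 0.028 for Oprd1 by stage in D1 saline, -0.063 for Oprm1 (cell type by stage) and 0.016 for Oprd1 (cell type by ketamine). With blocks of 8 consecutive library numbers in place of surrogate variables, Oprm1 between D2 and D1 was -0.20, -0.12 and -0.0069 in those 3 comparisons.

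With each library left out in turn, Oprm1 between D2 and D1 ranged from -0.35 to 0.061 in saline, -0.17 to 0.075 in ketamine, -0.21 to 0.32 in proestrus saline and -0.39 to 0.42 in diestrus saline rats. The ketamine difference of Oprm1 ranged from -0.55 to 0.059 in proestrus D1, -0.26 to 0.15 in diestrus D1, -0.54 to 0.072 in proestrus D2 and -0.19 to 0.45 in diestrus D2. That of Oprk1 ranged from -0.13 to 0.089, -0.023 to 0.086 and -0.017 to 0.29 in the first 3 of these, and that of Oprd1 from -0.29 to 0.21, -0.10 to 0.14 and -0.26 to 0.12. The cycle-stage difference ranged, for Oprm1, from -0.13 to 0.46 in D1 saline, -0.065 to 0.15 in D1 ketamine and -0.18 to 0.86 in D2 ketamine rats. For Oprk1 it ranged from -0.014 to 0.080 in D1 ketamine and -0.13 to 0.030 in D2 saline, and for Oprd1 from -0.25 to 0.20 in D1 saline, -0.21 to 0.041 in D1 ketamine, -0.14 to 0.042 in D2 saline and -0.0052 to 0.16 in D2 ketamine rats. The Oprk1 stage difference in D2 ketamine rats stayed between 0.20 and 0.29. Cell type by stage ranged from -0.29 to 0.46 for Oprm1, cell type by ketamine from -0.095 to 0.24 for Oprm1, -0.024 to 0.076 for Oprk1 and -0.19 to 0.036 for Oprd1, ketamine by stage in D1 from -0.076 to 0.031 for Oprk1 and -0.28 to 0.065 for Oprd1, and in D2 from -0.45 to 0.34 for Oprm1.

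Settings for the opioid system list and for the counts of all genes called were chosen after the data had been examined. Without surrogate variables 1 list gene, not 3, was called lower in D2 ketamine rats. In the single model 0 were called higher in D2 saline rats, Adcy5 was at -0.21 in saline rats (adjusted p = 0.0409) and Rgs9 at -0.014 in ketamine rats. With single libraries left out, 0 to 2 list genes were called higher and 1 to 3 lower in saline rats, and 3 to 4 lower in ketamine rats. Adcy5 ranged from -0.055 to 0.16 in saline and Rgs9 from -0.024 to 0.099 in ketamine rats. The count of all genes called between D2 and D1 in saline rats was 3941, and it was 1848 in the single model, 1237 without library 1, 1566 without library 17, 1916 without library 39 and 2450 without library 5. In proestrus saline rats it was 718, and 1362 or 1090 with 1 or the estimated number of surrogate variables. In diestrus saline rats it was 546, and 1076 and 1250 with no and with 1 surrogate variable, 854 in the single model and 1348 with blocks. In proestrus ketamine rats it was 748, and 447 with no surrogate variable, 1313 with the estimated number and 394 with blocks, and in diestrus ketamine rats 1705, and 611 with no surrogate variable and 671 with blocks. Left-out libraries gave 1237 to 4229 in saline, 2062 to 2822 in ketamine, 286 to 1697 in proestrus saline, 273 to 925 in diestrus saline, 480 to 1098 in proestrus ketamine and 1156 to 2129 in diestrus ketamine rats.

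Group levels of the 3 genes moved by less than 1 SD with DESeq2 size factors or without TMM. A minimum of 10 counts in every library compared left Oprm1 out of 11 of its 18 comparisons, which then gave no value. No replicate number is shared between groups and no label says what a run of library numbers has in common. Each run of 8 numbers holds at most 1 library per group, and the fit of D2 against D1 with those runs as blocks, given above, is the closest to a paired analysis. Oprm1 had 4 to 66 counts per library, which limits its precision, and nothing in the labels links rats to litters or processing days, so p-values measure the spread between these rats.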
